A study of Mus musculus with 15 samples.

Results

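The clustered protocadherins are cell-surface adhesion molecules of the cadherin superfamily, encoded by 3 tandem gene clusters, Pcdh alpha, Pcdh beta and Pcdh gamma. Members were taken from the annotation as the protein-coding genes whose symbol begins with Pcdha, Pcdhb or Pcdhg, which gave 59 of 21770 protein-coding genes: 15 in the alpha, 22 in the beta and 22 in the gamma cluster. In neurons each member has its own promoter, and a cell uses only some of them, so that neighbouring cells carry different combinations on their surface and can tell self from non-self. The variable first exons of the alpha and gamma clusters are spliced to constant exons shared by the whole cluster, whereas beta members have no constant exons. Most of these promoters carry a conserved element with a CGCT core, and promoter choice is known to involve CTCF, cohesin and DNA methylation. The C-type members, here Pcdhac1, Pcdhac2, Pcdhgc3, Pcdhgc4 and Pcdhgc5, stand at the ends of the alpha and gamma clusters and are used more uniformly across cells than the others.

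ChIP–seq for H3K4me3, a trimethylated histone lysine found at active promoters and at some poised ones, was done in mouse mBA cells derived from brown adipose tissue. The 12 ChIP samples comprised 4 of wild-type cells with no treatment named (WT), 4 of wild-type cells given cell-permeable 2-hydroxyglutarate in DMSO (WT + 2HG; octyl d-2HG at 500 µM for 72 h in the study's methods) and 4 of untreated cells lacking the mitochondrial protease CLPP (CLPP-KO). Each condition also had 1 input sample. The labels call the cells primary, and the study's methods describe brown preadipocytes that were immortalized and then differentiated, with treatments from day 3. All cells were grown in high-glucose DMEM without pyruvate, and the labels name uridine for CLPP-KO cells alone, so genotype and uridine cannot be told apart, nor can 2HG and DMSO, because no vehicle is named for WT.

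The authors deposited 1 peak list per condition, called on the 4 ChIP samples together against that condition's input, so no spread between replicates and no test between conditions can be given. The WT list holds 12342 peaks, the WT + 2HG list 14059 and the CLPP-KO list 15118, without read counts, so the depth behind a list or a peak cannot be read from them. A gene was counted as marked in a list when a peak overlapped by at least 1 bp the 500 bp on either side of any of its annotated transcript starts. Clpp itself, the deleted gene, was marked in every list, at the 39.9th, 45.2nd and 43.4th area percentile in WT, WT + 2HG and CLPP-KO, and a promoter peak does not show whether the gene is intact. Here and below, the area percentile is the share of a list's own peaks with a smaller area under the curve, the authors' measure of peak strength, with ties split evenly. Areas are not scaled between lists, so peak strength was compared mainly by this rank. Fixed thresholds on area and summit p were tried only as alternatives. The rank itself depends on list length: weak peaks added to a longer list raise the percentile of the rest. Percentiles of the members marked throughout are therefore also given within lists of equal length, each kept to its 12342 peaks of largest area.

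Of 12 brown adipocyte markers, 3 were marked in WT and 4 in WT + 2HG and CLPP-KO. Prdm16, Pparg and Cebpa were marked throughout and Cidea was marked in the WT + 2HG and CLPP-KO lists, whereas Ucp1, Ppargc1a, Ebf2, Dio2, Adipoq, Fabp4, Plin1 and Lipe had no promoter peak in any list. A missing peak thus also occurred at genes that define the labelled tissue. Of 10 neuron markers, the lists marked 4, 5 and 7 in the order WT, WT + 2HG and CLPP-KO: Syn1 was added in both lists and Rbfox3 and Nefl in CLPP-KO alone, while Snap25, Stmn2 and Gap43 had no peak in any list. Of 5 glia markers, 1 was marked in WT and 2 in the other lists, Sox10 being the addition. Of 3 endothelium markers, 1 was marked in each list, and of 4 leukocyte markers none. The part of these markers in the protocadherin peaks was not tested.

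Few clustered protocadherins were marked, and fewer in WT than in the other lists. The WT list marked 2 of the 59 members (3.39%), against 50.4% of all protein-coding genes. The WT + 2HG list marked 4 members (6.78%), against 55.4% of all, and the CLPP-KO list marked 7 (11.9%), against 57.1%. In each list the share of members was below that of protein-coding genes as a whole. Each marked member had a peak of its own, so that the numbers of distinct peaks were also 2, 4 and 7. The remaining 52 members had no promoter peak in any list.

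Of the 7 members marked in any list, 6 lay in the gamma cluster and 1 in the alpha cluster. In the alpha cluster the same single gene of 15, Pcdhac2, was marked in every list, and Pcdha1 to Pcdha12, Pcdha4b and Pcdhac1 were unmarked. In the beta cluster none of the 22 genes, Pcdhb1 to Pcdhb22, was marked in any list. In the gamma cluster the WT list marked 1 gene of 22, the WT + 2HG list 3 and the CLPP-KO list 6. By gamma subfamily, the A type contributed 0, 0 and 2 of 12 genes, the B type 0, 2 and 2 of 7, and the C type 1, 1 and 2 of 3 in WT, WT + 2HG and CLPP-KO. The unmarked gamma genes were Pcdhga1 to Pcdhga4, Pcdhga7 to Pcdhga12, Pcdhgb1, Pcdhgb2, Pcdhgb4, Pcdhgb5, Pcdhgb8 and Pcdhgc5. Both members marked in WT were C-type genes, so that 2 of 5 C-type genes and 0 of the 54 other members were marked there. CLPP-KO marked 3 of the 5 C-type genes and 4 of the 54 others.

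**Figure D1:**
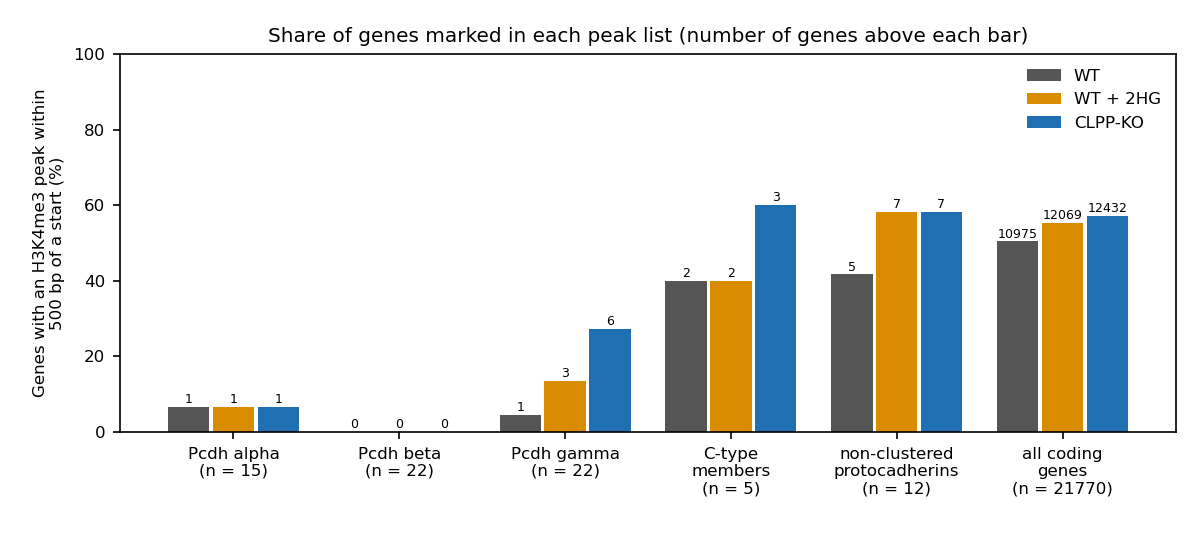
Bars give the percentage of genes in each group with an H3K4me3 peak within 500 bp of a transcript start in the WT, WT + 2HG and CLPP-KO lists, with the number of marked genes above each bar and the group size below it. The beta cluster is at 0 in all lists, the gamma cluster goes from 1 to 3 to 6 of 22 genes, and all coding genes lie between 50.4 and 57.1%.

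Pcdhac2, the last variable gene of the alpha cluster, had the strongest member peak in the WT + 2HG and CLPP-KO lists. Its main start lies at chr18:37276556 on the + strand (GRCm39). The peak spanned 37276389 to 37277498 in WT, 37276452 to 37277734 in WT + 2HG and 37276421 to 37277546 in CLPP-KO, widths of 1110, 1283 and 1126 bp. Its area percentile was 42.2 in the WT list, 66.4 with 2HG and 71.7 in CLPP-KO. Within lists of equal length these values were 42.2, 61.7 and 65.3, still below the median in WT and above it in the others. With 1 list per condition this difference in rank was not tested. The authors' summit −log10 p of this peak was 7.98, 15.5 and 16.3 in the same order, at the 36.6th, 54.8th and 53.0th percentile of those values.

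Pcdhgc3, the first C-type gene of the gamma cluster, was the other member marked throughout. Its main start lies at chr18:37939463 on the + strand. The peak spanned 37939469 to 37940940 in WT, 37939301 to 37940940 in WT + 2HG and 37939355 to 37940820 in CLPP-KO, widths of 1472, 1640 and 1466 bp. The area percentile was 46.9, 43.2 and 41.0, below the list median in all of them, and 46.9, 35.3 and 27.7 within lists of equal length. The summit −log10 p was 5.83, 11.7 and 9.11 in the same order, at the 21.6th, 39.0th and 30.5th percentile of those values. By area rank the peak was thus highest in WT and by summit p lowest there, and neither difference was tested. The summit stood 716 bp downstream of the nearest annotated start in WT, 81 bp in the WT + 2HG list and 95 bp in CLPP-KO. When the summit itself had to lie within 500 bp of a start, Pcdhgc3 was no longer marked in WT. A second peak followed in an exon of Pcdhgc3 in every list, 912, 1097 and 1232 bp wide, at percentiles 28.3, 40.5 and 33.4. The long non-coding RNA gene BC037039 has a start within 500 bp of both peaks and overlaps Pcdhgc3, so the signal of these genes cannot be told apart.

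Pcdhgb6 and Pcdhgb7, of the B subfamily, were marked in WT + 2HG and CLPP-KO and not in WT. Their starts lie at chr18:37875097 and chr18:37884653 on the + strand, with Pcdhga10, which was unmarked, between them. The Pcdhgb6 peak spanned 37875149 to 37875559 (411 bp) in WT + 2HG and 37875105 to 37875590 (486 bp) in CLPP-KO, at percentiles 12.4 and 22.0. The Pcdhgb7 peak spanned 37884837 to 37885118 (282 bp) in WT + 2HG and 37884564 to 37885077 (514 bp) in CLPP-KO, at percentiles 7.04 and 8.97. Their summit −log10 p was 6.14 and 8.16 for Pcdhgb6 and 4.44 and 3.95 for Pcdhgb7. Pcdhgb6 therefore ranked above Pcdhgb7 in both lists, and both ranked far below the list medians. An exon of the gene Gm26672 also lies at the Pcdhgb6 summit.

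Pcdhga5, Pcdhga6 and Pcdhgc4 were marked in CLPP-KO only. Pcdhga5 and Pcdhga6 are neighbours of the A subfamily, with main starts at chr18:37827433 and chr18:37840092. Their peaks spanned 37827481 to 37827900 (420 bp) and 37840270 to 37840657 (388 bp), at percentiles 11.7 and 10.7 and with summit −log10 p of 5.04 and 4.17. Pcdhgc4, a C-type gene, has its main start at chr18:37947920 and further annotated starts downstream. Its peak spanned 37948358 to 37948810 (453 bp), at percentile 6.57, the lowest of the 7 member peaks of CLPP-KO, and its summit −log10 p was 3.47. The lowest summit −log10 p anywhere in that list was 2.68, so these 3 calls lay toward the weak end of it.

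**Figure D2:**
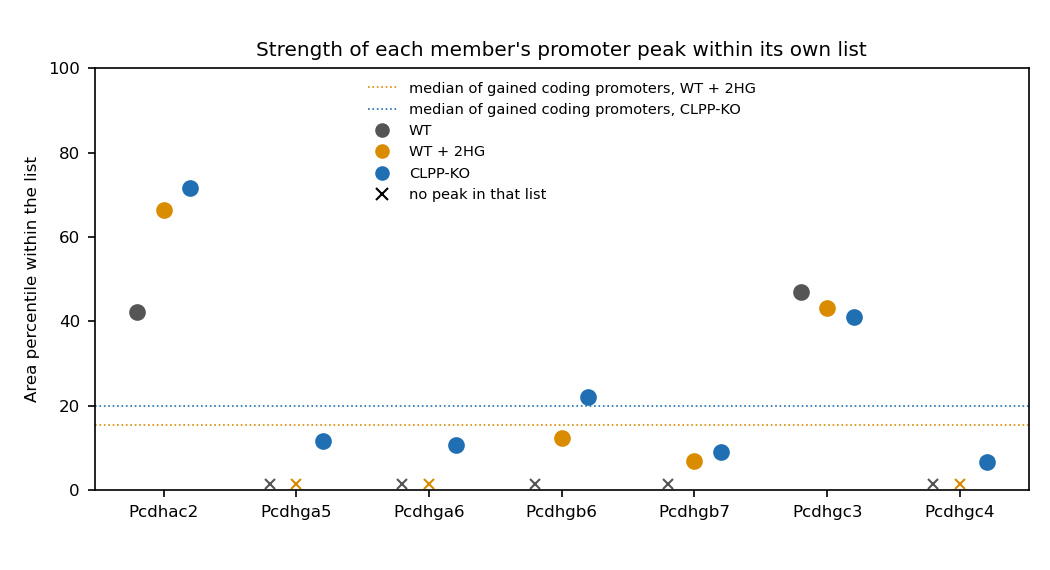
Points give the area percentile of each marked member's promoter peak within its own list, crosses stand for no peak in that list, and dotted lines are the medians of all coding genes' peaks gained in WT + 2HG or CLPP-KO. Pcdhac2 and Pcdhgc3 lie between 41.0 and 71.7, while the members gained lie between 6.57 and 22.0.

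In total, 5 of the 57 members unmarked in WT were marked in CLPP-KO (8.77%), against 14.2% of all protein-coding genes unmarked in WT. For WT + 2HG these were 2 of 57 (3.51%), against 11.1%, and for both lists together 2 of 57 (3.51%), against 9.29%. The members' share was below that of protein-coding genes in each case, and with 1 list per condition this was not tested. No member was lost in either list, where 0.711% of all genes marked in WT were lost in CLPP-KO and 0.938% in WT + 2HG. All gains were in the gamma cluster, 5 of 21 unmarked genes in CLPP-KO (23.8%) and 2 of 21 in WT + 2HG (9.52%), and these neighbouring genes are not independent of each other. Both comparisons used the same WT list.

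The gained calls depended on how long the lists were. When each list was shortened to its 12342 peaks of largest area, the length of the WT list, Pcdhgb6 was the single member gained in either list, and 8.00% of protein-coding genes were still gained in CLPP-KO and 7.05% in WT + 2HG. With areas of at least 1000, Pcdhgb6 was gained in CLPP-KO and no member in WT + 2HG, while the shares of all genes were 16.3% and 13.2%. At a summit p no higher than 1e-05, 2 members were gained in CLPP-KO, Pcdhga5 and Pcdhgb6, and 1 in WT + 2HG, Pcdhgb6. The share of all genes gained at this summit p was not computed, so these counts have no background beside them. Pcdhac2 and Pcdhgc3 were marked in all lists under each of these rules.

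The gained peaks were narrow and weak. Their area percentile ranged from 7.04 to 12.4 in WT + 2HG (median 9.70 of 2 peaks) and from 6.57 to 22.0 in CLPP-KO (median 10.7 of 5 peaks). Gained promoter peaks of all coding genes were also weak, with medians of 15.4 among 1197 peaks and 19.9 among 1581 peaks, whereas the coding promoter peaks kept from WT had medians of 59.9 and 62.4. The gained member peaks were 282 to 514 bp wide, beside median widths of 531 and 571 bp for all gained coding promoter peaks. Over all 7 member peaks of CLPP-KO the median percentile was 11.7, against 57.2 for coding promoter peaks, and 1 of the 7, that of Pcdhac2, exceeded the list median. In WT + 2HG the member median was 27.8 against 55.7, and in WT it was 44.6 against 53.8.

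Relative to the gene's main start, most gained member peaks lay wholly downstream. The summits of the 7 gained member peaks, counted over both lists, lay 37 to 430 bp downstream of the nearest annotated start, with a median of 257 bp. Of these 7 peaks, 6 began downstream of the gene's main start. The exception was the Pcdhgb7 peak of CLPP-KO, which crossed it. The Pcdhgc4 peak, downstream of the main start, spanned a further annotated start of that gene at chr18:37948509. The 6 peaks of Pcdhac2 and Pcdhgc3 had summits 45 to 716 bp downstream, with a median of 168 bp, and 1 of them, Pcdhgc3 in WT, began downstream of the main start. Among gained coding genes as a whole the median summit lay 92.5 bp downstream in the WT + 2HG list and 95.0 bp in CLPP-KO, and 47.9 and 47.0% of the peaks began downstream of the main start.

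**Figure D3:**
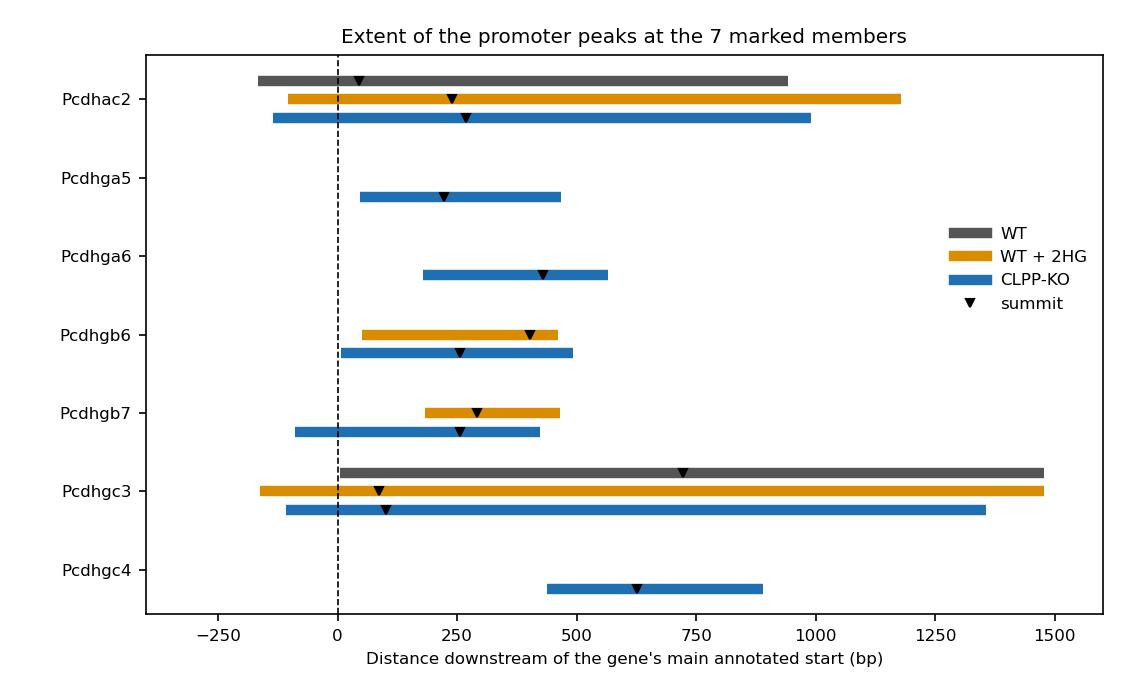
Bars show the extent of each promoter peak of the 7 marked members in bp from the gene's main annotated start (dashed line at 0), coloured by list, with triangles at the summits. The peaks of Pcdhac2 and Pcdhgc3 are 1110 to 1640 bp wide, and the gained peaks are 282 to 514 bp wide and mostly begin to the right of the start.

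Along the chromosome the members occupy chr18:37063237-37975014, 912 kb on the + strand, with the alpha cluster first, the beta cluster in the middle and the gamma cluster last. Wherever they fell, the WT list had 3 peaks in the locus, the WT + 2HG list 5 and the CLPP-KO list 11. The alpha span had 1 peak in every list, the beta span none, and the gamma span 2, 4 and 10. Peaks covered 0.383, 0.517 and 0.790% of the locus, compared with 0.360, 0.442 and 0.465% of chromosome 18. The covered share of the locus was thus near that of the chromosome in WT and above it in CLPP-KO, although its start windows were marked less often than those of other genes.

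Long stretches had no peak in any list. The first ran for 213 kb from the start of Pcdha1 to the Pcdhac2 peak and contained 14 member starts. The longest ran for 547 kb from the end of the Pcdhac2 peak to a CLPP-KO peak in Pcdhgb2 and contained 28 member starts, among them the whole beta cluster. Of the other protein-coding genes there, Slc25a2, a mitochondrial carrier gene, and Taf7, which encodes a subunit of the general transcription factor TFIID, also had no promoter peak in any list. The annotated coding genes Gm38666 and Gm37388, which start among the alpha genes and extend into the gamma cluster, were likewise unmarked. Beyond the gamma cluster, which ends at chr18:37975014, Diaph1, a formin that nucleates actin filaments, was marked at percentiles 77.1, 68.0 and 77.0. Hdac3, a histone deacetylase, was marked at 87.1, 82.8 and 84.5. Both genes are on the − strand, so their outermost starts, at chr18:38068529 and chr18:38088077, lie at the ends farther from the cluster. Their transcription runs toward it. Strong peaks in every list thus belonged to genes beyond the gamma cluster and not to its members.

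**Figure D4:**
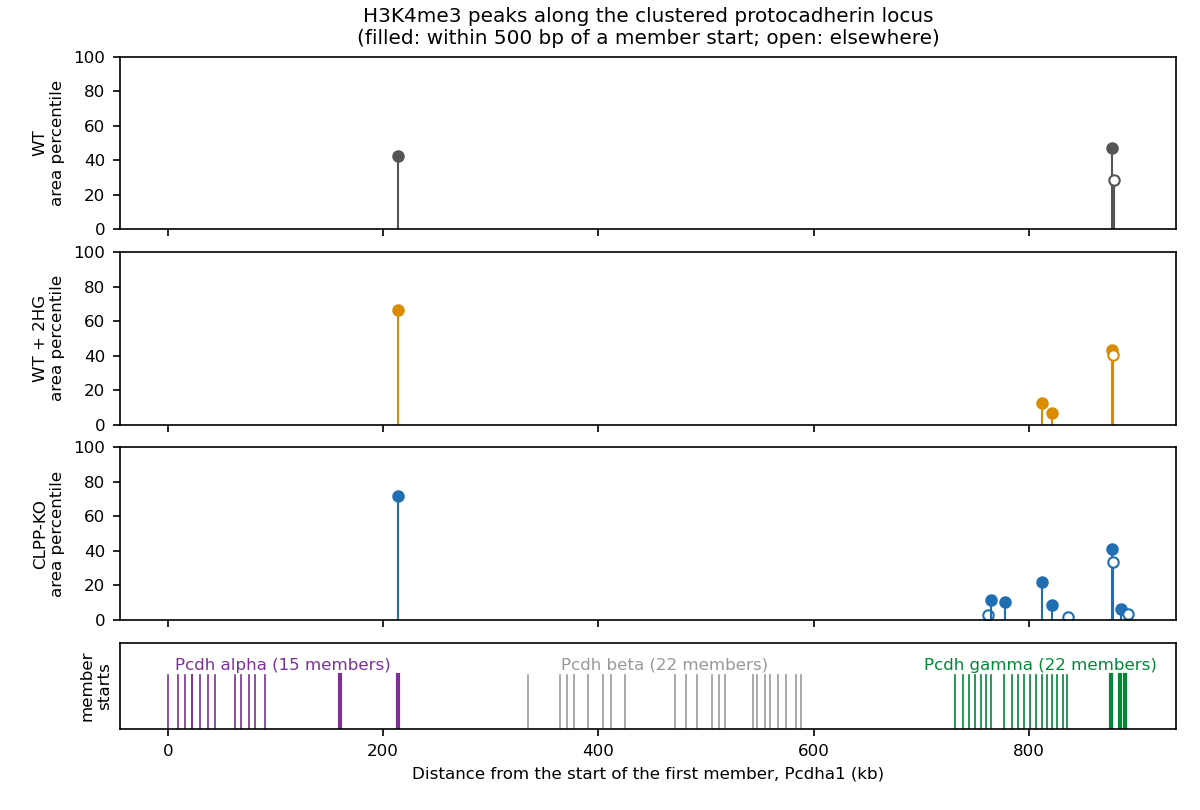
The upper panels show each H3K4me3 peak of the WT, WT + 2HG and CLPP-KO lists at its distance in kb from the first member's start, with its area percentile as height, filled where it lies within 500 bp of a member start and open elsewhere. The lowest panel marks the 59 main starts, thicker for C-type genes. The number of peaks is 3, 5 and 11, and the beta cluster has none.

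Besides the second Pcdhgc3 peak, CLPP-KO alone had 3 locus peaks away from member starts, all in exons of gamma genes. In Pcdhgb2 a peak of 554 bp at percentile 2.88 lay 1606 bp from the nearest start, beside a start of the non-coding gene Gm58660. In Pcdhga12 a peak of 296 bp at percentile 1.93 lay 666 bp from a start, and in Pcdhgc5 a peak of 266 bp at percentile 3.25 lay 2315 bp from one. These are the unmarked members nearest to being called, and the called peaks nearest to the limit began 178 bp (Pcdhga6) and 165 bp (Pcdhgb7 in WT + 2HG) from a start. Windows of 1000 bp added Pcdhga12 and windows of 2000 bp added Pcdhgb2 as well, both in CLPP-KO.

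The sequence around the starts differed between the clusters. CpG content was expressed as the observed number of CpG dinucleotides over that expected from the C and G content, in the 1001 bases centred on the main start. The median was 0.69 in the alpha cluster, 0.38 in the beta cluster and 0.59 in the gamma cluster, and 13 of 15, 0 of 22 and 10 of 22 genes, respectively, reached 0.6. The unmarked beta cluster was therefore also the one with few CpGs, with no gene above 0.52, whereas the alpha cluster had the highest median and a single marked gene. Over all coding genes the median was 0.76 for those marked in WT, 0.59 for those gained in WT + 2HG or CLPP-KO and 0.20 for those marked in no list.

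Marked and unmarked members overlapped in CpG content. The 7 marked members ranged from 0.52 (Pcdhgc4) to 0.80 (Pcdhgc3) with a median of 0.66, and the 52 unmarked members from 0.16 to 0.86 (Pcdhga11) with a median of 0.52. Of the unmarked members, 27 were at or above the lowest marked one. That lowest value describes the main start of Pcdhgc4. The peak of this gene lay 438 to 890 bp downstream of that start, largely outside the bases measured. Within the gamma cluster the medians were 0.65 for the 6 marked and 0.58 for the 16 unmarked genes. GC content had medians of 49.5% in marked and 44.6% in unmarked members. Pcdhgc3 (58.4%) and Pcdhac2 (57.7%), the members marked in WT, had the highest GC content of all, followed by Pcdhac1 (55.8%) and Pcdhgc5 (52.7%), which were unmarked. Among coding genes marked in WT the median GC content was 59.9%.

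**Figure D5:**
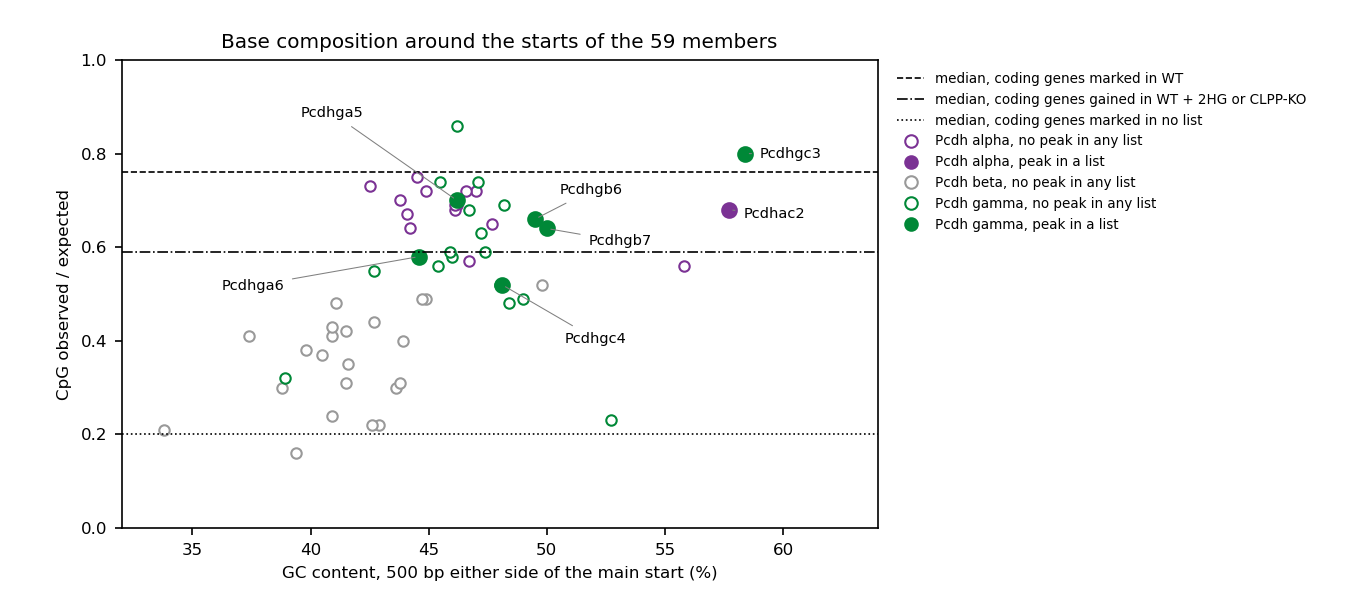
Each point is 1 of the 59 members, placed by the GC content and the observed-over-expected CpG ratio of the 1001 bases around its main start and filled where a promoter peak was present in any list. Horizontal lines give the median ratio of coding genes marked in WT (0.76), gained in WT + 2HG or CLPP-KO (0.59) and marked in no list (0.20). The beta members lie lowest and the filled points lie among unfilled alpha and gamma points.

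The letters CGCT, the core of the conserved protocadherin promoter element, were searched on both strands from 250 bp before to 50 bp after the main start. They were found in all 7 marked members and in 50 of the 52 unmarked members (96.2%), the exceptions being Pcdhb22 and Pcdhga12. All protein-coding genes had them in 66.8% of windows, and those marked in WT in 87.8%. The letters were therefore nearly as common in unmarked as in marked members, and a match of 4 letters is not a bound site.

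Members resemble each other in sequence, and a read that matches several places cannot be assigned to one of them. The windows searched for repeats were the 500 bp on either side of the main start. Parts of peaks outside them, as at Pcdhac2, Pcdhgc3 and Pcdhgc4, were not checked. In the windows of the 7 marked members no stretch of 100 bases, the length of a read, occurred elsewhere in the genome. Such repeated stretches were present in 16 of the 52 unmarked members, in 11 of 15 alpha, 3 of 22 beta and 2 of 22 gamma genes. The highest shares were 19.8% in Pcdha10 and 19.1% in Pcdha11, and no member reached 50%. The other 36 unmarked members, 19 of them beta genes, had windows in which every 100-base stretch was unique. Pcdha4b starts within the same window as Pcdha4, and these were counted as separate genes with shared sequence.

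The protocadherins outside the clusters, single genes with promoters of their own, had a larger marked share than the clustered members. Of 12 such genes, 5 were marked in WT (41.7%) and 7 each in WT + 2HG and CLPP-KO (58.3%). The shares of all protein-coding genes were 50.4, 55.4 and 57.1% in WT, WT + 2HG and CLPP-KO. Of the 7 unmarked in WT, 2 were gained in WT + 2HG and 2 in CLPP-KO (28.6% each), against 11.1% and 14.2% of all genes unmarked in WT. Pcdh15, a part of the tip link of hair cells, was gained in both lists, at percentiles 30.8 in WT + 2HG and 39.0 in CLPP-KO. Pcdh11x was gained in WT + 2HG only, at 12.9, and Pcdh20 in CLPP-KO only, at 11.9. Of 11 genes for CTCF, cohesin and its loaders and release factors, which shape protocadherin promoter choice, 10 were marked in every list, Smc1a being the exception. All 8 genes for silencing factors, among them Smchd1 and the DNA methyltransferases, were marked in every list. None of these regulators changed its call between lists. Unchanged calls were the rule for marked genes, since 0.711% of all genes marked in WT were lost in CLPP-KO and 0.938% in WT + 2HG.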

How the data were processed

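H3K4me3 ChIP–seq was done on 12 samples of mBA cells (4 per condition), with 3 inputs. Reads were paired-end, 2 × 100 bp. The submitters' processing notes name fastp 0.23.4, BWA 0.7.17, deepTools 3.5.4 and Genrich 0.6.1 and the build mm39 (GRCm39). Peak calling by the authors joined the 4 replicates of each condition and set them against 1 input. The deposited peaks carry a score capped at 1000, a signal (the area under the significance curve, at least 200 in every list, above the minimum area in the study's stated peak-calling settings, a difference that was not resolved) and a −log10 p-value for the summit. The deposited q-value field is −1 throughout. The lists give no read counts, so the nominal sequencing depth that the study states could not be set against them and the depth behind each list is not known.

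Genes and transcript starts came from GENCODE M39 (78289 genes). Peaks beyond a chromosome's end numbered 0. Peaks on sequence names absent from the reference used here (77 in the WT list, 6 with 2HG and 217 in CLPP-KO) stayed in the totals and percentiles. Percentiles were computed within each list. GC, CpG and motif content were read from the GRCm39 reference around each gene's main start. No test between conditions was made. The members and lists were chosen with earlier results of these data known. Every member is accounted for, with values for each marked one, and genes of other lists are named where their call differed, apart from genes named after their values were seen as examples of unmarked or constantly marked genes. Alternatives changed the window, the summit rule, the starts per gene, the peak threshold, list length and ranking measure. Percentiles within equal-sized lists were added after seeing the data. On simulated data 942 of 942 planted promoter peaks among 2000 genes were recovered, and 3 of 3 lists gave the same marked genes as bedtools 2.31.1. Python 3.11.15, numpy 2.4.6 and matplotlib 3.10.9 did the rest.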

Additional observations from a re-analysis of the deposited data

How the results depend on the processing

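The number of marked members was within 1.5 times its main value in 21 of 27 alternatives, as was the number of distinct peaks (21 of 27), and the number gained in 18 of 30. With the summit required in the window, WT had 1 marked member and 1 peak. With a summit p of at most 1e-05, CLPP-KO had 4 members and 4 peaks, and 2 members were gained in CLPP-KO, 1 in WT + 2HG and 1 in both. With areas of at least 1000, WT + 2HG had 2 members and 2 peaks and CLPP-KO 3 and 3, and 1 member was gained in CLPP-KO, 0 in WT + 2HG and 0 in both. In lists of 12342 peaks, ranked by area or by summit p, CLPP-KO had 3 members and 3 peaks, with 1 member gained in CLPP-KO, 1 in WT + 2HG and 1 in both. These alternatives remove weak peaks by construction. The median area percentile in WT, WT + 2HG and CLPP-KO was 42.2, 40.5 and 11.2 with windows of 2000 bp, and 40.2, 22.2 and 6.67 when ranked among coding promoter peaks. By summit p it was 29.1, 28.1 and 15.0. Within lists of equal length, an alternative chosen after seeing the data, it was 44.6, 35.3 and 27.7, over the members still marked there. Differences between the lists vanished under some alternatives. With areas of at least 1000, WT and WT + 2HG each had 2 marked members. In lists of 12342 peaks, WT + 2HG and CLPP-KO each had 3 marked and 1 gained. No order of the lists was reversed.

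No paired analysis was possible because each condition has 1 list called on its 4 replicates together, and for the same reason no replicate was left out. An alternative gene table was not run, since the one at hand is of another build than the peak lists. The depth behind each list is not known, so an unmarked member is one without a called peak, not one shown to lack H3K4me3.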
